A study of Mus musculus with 8 samples.

Results

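The crystallin genes of the alpha, beta and gamma families were examined in RNA from Müller cell ribosomes of the mouse retina. Members were all genes whose symbol starts with Crya, Cryb or Cryg, which leaves out the cryptochromes Cry1 and Cry2. They numbered 2 of the 12339 genes in the deposited table, Cryab and Crybg3. The GENCODE mouse release 21 annotation holds 19 protein-coding genes with these symbols, and the other 17, Cryaa and the 8 gamma-crystallin genes among them, were not analysed here. Levels are in FPKM, a fragment count corrected for transcript length and library size, and every gene in the table had a mean above 2 FPKM. The samples were 4 retina samples with a Müller-specific conditional knockout of Nrf2 (cKO) and 4 wild-type (WT) ones, numbered 1, 3, 4 and 5 in each group. All 8 had been through oxygen-induced retinopathy (OIR), a model in which newborn mice breathe high oxygen and then room air, and were taken at postnatal day 14. RiboTag puts an epitope tag on a ribosomal protein in cells that express Cre, so that their ribosomes can be pulled down with the bound RNA. The labels give neither the Cre driver nor the deleted exon, and do not say whether a sample was 1 animal. The p-values therefore measure the spread between these samples, which may be technical.

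Crystallins were named as the abundant soluble proteins of the eye lens, where their dense packing makes the tissue transparent and refractive. Alpha-crystallins are small heat shock proteins, chaperones that bind unfolding proteins and keep them from aggregating. Cryab, the alpha-B chain, is also made outside the lens, in heart, muscle and glia, and crystallins are known to be expressed in the retina and to respond to injury there. Beta- and gamma-crystallins share a fold of Greek key motifs. Crybg3 is a large protein that carries domains of this fold and is not a structural protein of the lens.

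Cryab (ENSMUSG00000032060) lies on GRCm38 chromosome 9 from 50751325 to 50756636, on the plus strand, in the GENCODE annotation. Hspb2, another small heat shock gene, lies on the opposite strand and shares 1030 bases with it. Crybg3 (ENSMUSG00000022723) lies on chromosome 16 from 59490775 to 59600979, on the minus strand, and its far end shares 1687 bases with Riox2 on the opposite strand. The libraries were directional, but whether reads were counted by strand is not given in the sources used here, so reads in the shared bases could belong to either gene. Riox2, a histidyl hydroxylase of ribosomal proteins, was at 15.1 ± 1.49 FPKM in cKO and 13.4 ± 0.714 FPKM in WT (SD, n = 4 each). Hspb2 was not analysed here.

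The promoter of Crybg3 is shown because Nrf2 acts through short DNA motifs near the genes it controls. That of Cryab was not in the sources used here and was not searched. The 250 bases before its start in RefSeq, on the minus strand of GRCm38.p6 at chr16:59601048-59601297, were 64.0% G or C.
Crybg3: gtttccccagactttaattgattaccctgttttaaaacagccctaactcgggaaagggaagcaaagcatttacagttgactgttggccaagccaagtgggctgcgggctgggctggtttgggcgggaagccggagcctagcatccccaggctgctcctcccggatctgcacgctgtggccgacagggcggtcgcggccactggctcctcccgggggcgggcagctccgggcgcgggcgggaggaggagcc
Neither strand held the core of the antioxidant response element bound by Nrf2 (TGACNNNGC), the heat shock element (GAANNTTC) or a short motif of Maf proteins (TGCTGA). Of 32851 promoter windows of the same length, 10.2% held the first, 6.69% the second and 16.1% the third. The absence says only that these letters are not in this window.

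Nfe2l2, the gene of Nrf2, was at 12.7, 16.5, 14.8 and 10.4 FPKM in cKO 1, 3, 4 and 5, against 17.5, 18.8, 23.1 and 17.5 FPKM in WT 1, 3, 4 and 5. Every cKO value lay below every WT value, as for 2.28% of all genes. The log2 difference was −0.50 (p = 0.0286 in an exact two-sided permutation test, whose 70 assignments allow none smaller). Any gene whose groups do not overlap gets this p. Library sums ran from 410581 to 448130 FPKM, and the number of fragments behind them is unknown. All 10 Müller cell markers on the list were measured, led by Glul, glutamine synthetase, as the gene with the highest mean in the table. Markers of rods were measured as well, with summed levels of 2982 to 4566 FPKM in cKO and 2815 to 4426 FPKM in WT, so RNA of other retinal cells was present. In such samples, fewer cells of a type and less RNA per cell cannot be told apart.

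Cryab was an abundant RNA of the pull-downs and did not differ between the genotypes beyond the spread of the libraries. Its mean over the 8 libraries was 209.9 FPKM, rank 247 of the 12339 genes, above 98.0% of them. It was at 219.9, 195.2, 267.0 and 196.8 FPKM in cKO 1, 3, 4 and 5, against 173.5, 168.0, 256.3 and 202.4 FPKM in WT 1, 3, 4 and 5. The groups overlapped. The library numbered 4 was the highest of each group, and WT 3 and WT 1 were the lowest of all 8. The mean was 219.7 ± 33.5 FPKM in cKO and 200.04 ± 40.4 FPKM in WT (SD, n = 4 each). The log2 difference was 0.14 (SE 0.16, adjusted p = 0.718 by limma), with a 95% interval of −0.20 to 0.49, or 0.869-fold to 1.41-fold. Cryab was higher in cKO in 3 of the 4 pairs of equal number, by 1.27-fold, 1.16-fold and 1.04-fold in pairs 1, 3 and 4, and 0.973-fold of WT in pair 5. With the replicate number as a block the interval narrowed to −0.03 to 0.32.

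Crybg3 was a gene of modest level with nearly equal means in the genotypes. Its mean over the 8 libraries was 9.57 FPKM, rank 8064, above 34.6% of the genes. It was at 9.63, 9.505, 8.33 and 10.4 FPKM in cKO 1, 3, 4 and 5, against 11.9, 11.1, 5.61 and 9.98 FPKM in WT 1, 3, 4 and 5. All cKO values lay within the range of the WT values, and WT 4 was the lowest of the 8. The mean was 9.47 ± 0.857 FPKM in cKO and 9.67 ± 2.82 FPKM in WT (SD, n = 4 each), and the log2 difference was 0.02 (SE 0.21, adjusted p = 0.976 by limma, 95% interval −0.44 to 0.48). The pairs went both ways. Crybg3 was at 0.807-fold and 0.854-fold of WT in pairs 1 and 3, and at 1.48-fold and 1.04-fold in pairs 4 and 5. Without WT 4 the difference was −0.21 (adjusted p = 0.397 by limma), and its sign also turned with equal-sum scaling, with library weights and without cKO 5.

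**Figure D1:**
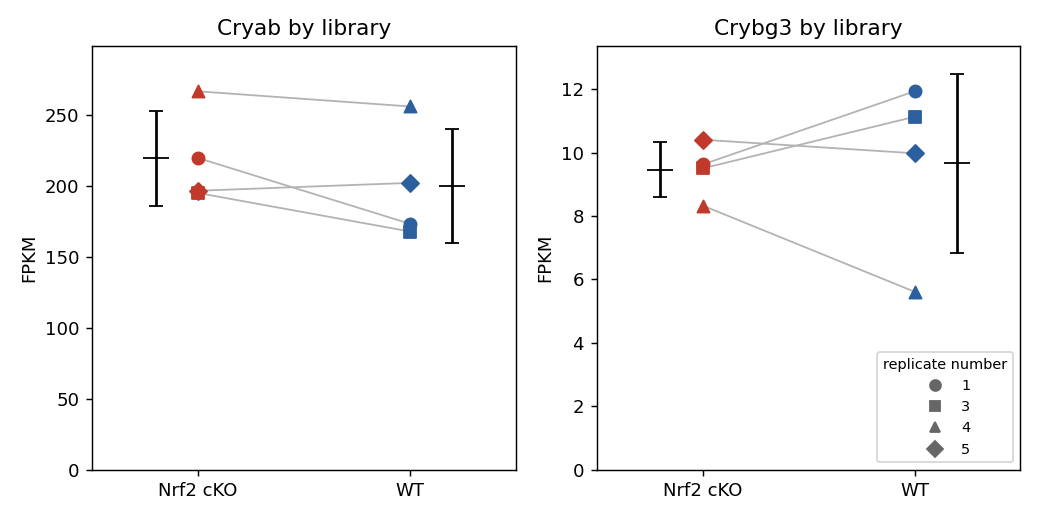
FPKM of Cryab (left) and Crybg3 (right) in each library, with Nrf2 cKO in red and WT in blue; grey lines join libraries of equal replicate number, and black bars give the mean ± SD of 4 libraries. The libraries numbered 4 are the highest of each group for Cryab, at 267.0 FPKM in cKO and 256.3 FPKM in WT, and the lowest for Crybg3, at 8.33 FPKM in cKO and 5.61 FPKM in WT.

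Neither crystallin gene passed the threshold (adjusted p under 0.05 over all genes), without the replicate block or with it. Without the block 0 of the 12339 genes passed in limma (0.0%), while 1310 had an unadjusted p under 0.05. With the block 1305 genes passed (10.6%), 2.99% of all genes higher and 7.59% lower in cKO, and the adjusted p was 0.258 for Cryab and 0.945 for Crybg3. The groups overlapped for both members, where 4.34% of all genes had no overlap. A p that misses the threshold does not show that the genotypes were alike. The unblocked intervals leave room for an increase of up to 1.41-fold for Cryab and 1.39-fold for Crybg3, and for a decrease to 0.869-fold and 0.738-fold of the WT level.

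The within-group standard deviation of log2(FPKM + 0.5) was 0.246 for Cryab and 0.342 for Crybg3, against a median of 0.197 over all genes. That of Cryab was above 66.9% of all genes and above 74.8% of the 630 genes with a mean within 2-fold of its own. For Crybg3 it was above 84.6% of all genes and of the 5038 genes within 2-fold. By genotype, the log2 standard deviation of Crybg3 was 0.126 in cKO and 0.466 in WT, and that of Cryab was 0.210 in cKO and 0.277 in WT. These positions depended in part on WT 4, the extreme WT library of both genes. The cKO value of 0.210 for Cryab does not involve it. Leaving out a gene's own extreme tends to lower its standard deviation, and no other library was left out of this measure. Without WT 4, a setting added after the values were seen, the WT standard deviation was 0.124 for Crybg3 and 0.143 for Cryab. The within-group value was then 0.126 for Crybg3, above 22.3% of all genes, and 0.186 for Cryab, above 49.6%, where the median gene was at 0.187.

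**Figure D2:**
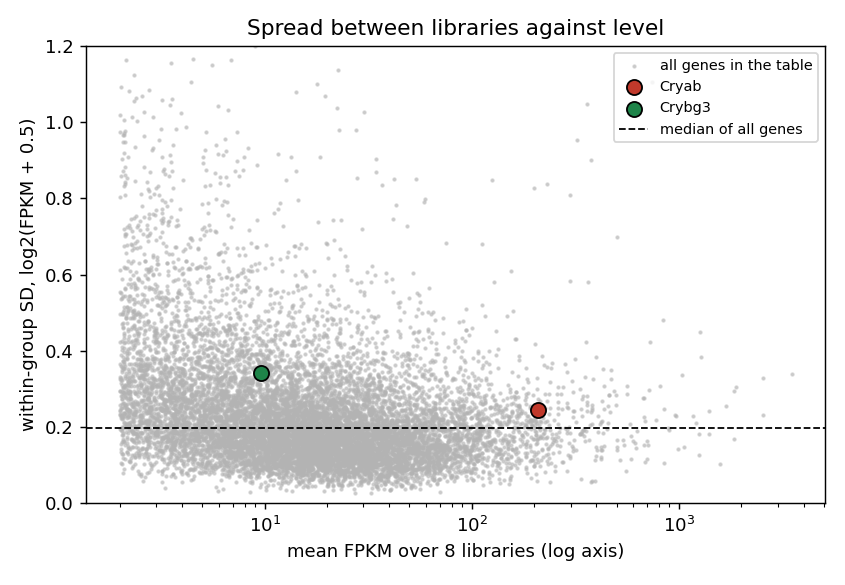
Within-group standard deviation of log2(FPKM + 0.5) against mean FPKM over the 8 libraries (log axis), with 1 grey point per gene and the median of all genes as a dashed line; 43 genes lie above the axis. Cryab at 0.246 and Crybg3 at 0.342 both sit above the median of 0.197.

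This spread was also split by replicate number. Libraries of equal number shared 88.3% of the within-group sum of squares of Cryab and 70.1% of that of Crybg3, where the median gene had 78.0%. The share of Cryab was above that of 72.1% of all genes, and the share of Crybg3 above that of 37.7%. Unrelated libraries would share a part as well, so these shares are read only against those of other genes. Both genes had their extremes at number 4, in opposite directions. The libraries cKO 4 and WT 4 were the highest 2 of the 8 for Cryab, as for 9.21% of all genes, and the lowest 2 for Crybg3, as for 9.77% of all genes. The same libraries held the most Müller cell RNA by the marker list. The summed level of the 10 Müller markers was 8511, 7429, 11652 and 8386 FPKM in cKO 1, 3, 4 and 5, against 8134, 9327, 13396 and 9640 FPKM in WT 1, 3, 4 and 5. The part of this in the levels of Cryab and Crybg3 was not tested.

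**Figure D3:**
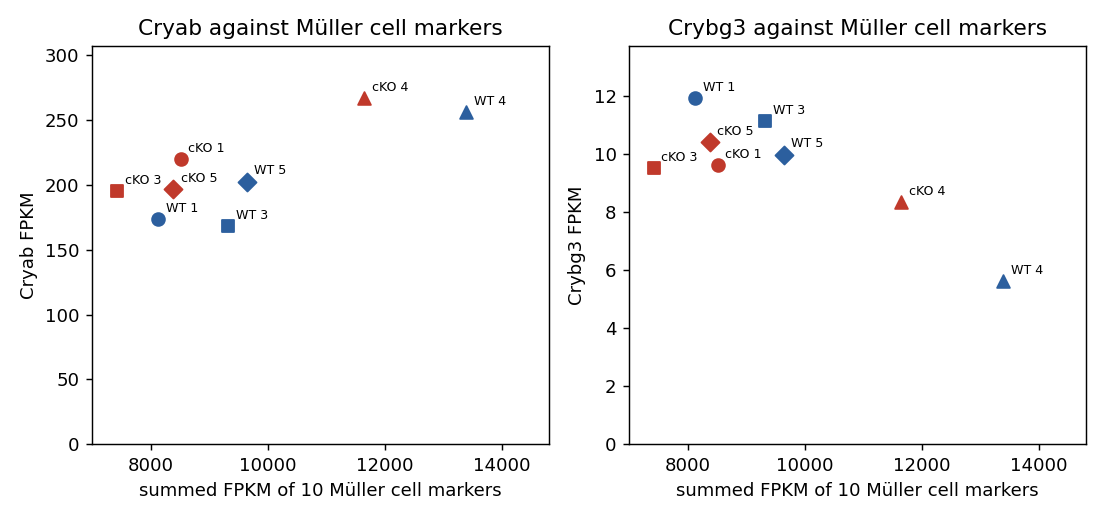
FPKM of Cryab (left) and Crybg3 (right) against the summed FPKM of the 10 Müller cell markers in the same library, with cKO in red, WT in blue and the symbol giving the replicate number. The libraries cKO 4, at a sum of 11652, and WT 4, at 13396, lie to the right of the other 6, high for Cryab and low for Crybg3.

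Taken relative to the mean log2 value of the 10 Müller markers in the same library, a measure added after the values were seen, Cryab lay higher in every cKO library than in any WT library. Its relative level was −0.50, −0.68, −0.73 and −0.67 in cKO 1, 3, 4 and 5, against −0.83, −1.14, −0.97 and −0.76 in WT 1, 3, 4 and 5. The nearest values of the groups were those of cKO 4 and WT 5. The difference was 0.28 (p = 0.0286 in the unpaired exact permutation test, again its smallest). With the pairs kept, the exact permutation p was 0.125, the smallest that 16 assignments allow, so no difference could pass there. On this scale 1.92% of all genes had no overlap, and 1.81% lay higher in cKO. The marker mean itself was 8.42 in cKO and 8.55 in WT, a difference of −0.13, and is part of the relative value. On the same scale Crybg3 differed by 0.15 (exact two-sided permutation p = 0.743).

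The genes with profiles most like that of Cryab over the 8 libraries were Ccdc85b, Laptm4a, Bsg, Marc2, Prdx5 and Cbr1. Likeness was the root mean square distance between the deviations of 2 genes from their own mean log2 level. It was 0.04 for Ccdc85b and 0.06 for Cbr1, where the median gene was at 0.29. Bsg, basigin, a partner of lactate carriers, was at 1780, 1631, 2098 and 1535 FPKM in cKO 1, 3, 4 and 5, against 1354, 1393, 2140 and 1506 FPKM in WT 1, 3, 4 and 5. Prdx5, a peroxiredoxin, was at 144.3, 121.1, 162.4 and 134.8 FPKM in cKO, against 110.5, 109.3, 172.8 and 139.5 FPKM in WT, in the same order of numbers. Both were highest at number 4, as Cryab was, which choosing genes by likeness to its profile favours. For Crybg3 the nearest were the noncoding RNA A730020E08Rik, Hecw1, Ubap1l, Tcf20, Kcnma1 and Akna, at 0.06 to 0.12 where the median gene was at 0.35. Kcnma1, the pore subunit of the large-conductance potassium channel, was at 31.3, 38.0, 26.3 and 37.04 FPKM in cKO 1, 3, 4 and 5, against 40.9, 39.1, 22.2 and 31.3 FPKM in WT 1, 3, 4 and 5. All 6 had WT 4 as their lowest library, as Crybg3 did, which the choice by likeness favours as well. Cryab and Crybg3 were 0.50 apart, farther than the median gene was from either.

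**Figure D4:**
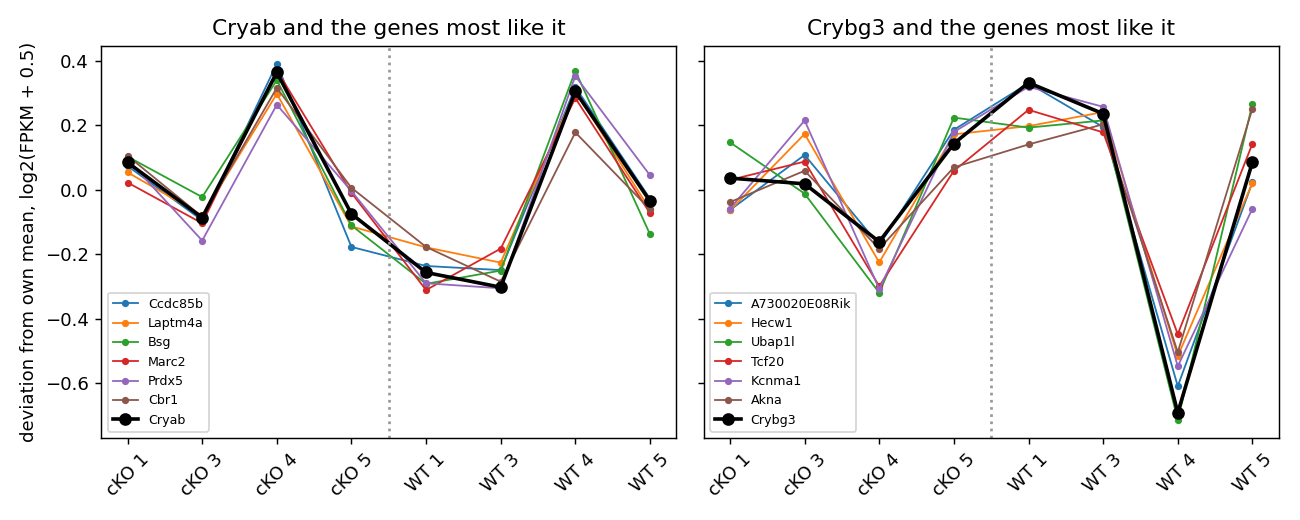
Deviation of each gene from its own mean log2(FPKM + 0.5) in the 8 libraries, for Cryab (left) and Crybg3 (right) in black with the 6 genes nearest to each in colour; the dotted line parts cKO from WT. Cryab and its nearest genes peak at cKO 4 and WT 4, and Crybg3 and its nearest genes have their lowest value at WT 4. The genes were chosen by this likeness, which favours shared extremes.

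Of 15 lens genes on the list 2 were measured. Bfsp2, a lens filament protein, was at 1.79, 1.90, 2.71 and 2.97 FPKM in cKO 1, 3, 4 and 5, against 3.01, 3.41, 3.36 and 3.22 FPKM in WT 1, 3, 4 and 5. Every cKO value lay below every WT value, as for 2.28% of all genes (adjusted p = 0.469 by limma, and 0.122 with the block). Tdrd7, an RNA granule protein needed in the lens and made in other tissues, was at 71.3 ± 10.1 FPKM in cKO and 77.5 ± 9.83 FPKM in WT (SD, n = 4 each). The 13 other lens markers, Mip and Lim2 among them, were not analysed here.

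A list of 11 genes held those with small heat shock symbols (Hspb) and the heat shock factors. The 4 measured were Hspb6, Hspb11, Hsf1 and Hsf2, so the list covers little of the alpha-crystallin family. In the blocked fit 1 rose, 0 fell and 3 did not reach the threshold, where 2.99% of all genes rose and 7.59% fell. The median log2 difference was 0.00, as it was over all genes. The member that rose was Hspb6, a small heat shock protein related to Cryab. Its gene shares 122 bases with Proser3 and 3 with Lin37 on the opposite strand, so reads there could belong to either gene. Hspb6 was at 29.6, 24.5, 32.5 and 29.5 FPKM in cKO 1, 3, 4 and 5, against 22.6, 21.7, 20.3 and 21.6 FPKM in WT 1, 3, 4 and 5. Every cKO value lay above every WT value, as for 2.06% of all genes, and the difference was 0.42 (adjusted p = 0.417 by limma, and 0.0258 with the block). Without pair 1, 4 or 5 the blocked adjusted p was 0.0898, 0.0900 and 0.0712. Cryab, at 209.9 FPKM, was the more abundant of these relatives, where Hspb6 had 25.3 FPKM. Hsf1, the main heat shock factor, was at 14.2 ± 1.48 FPKM in cKO and 17.6 ± 3.93 FPKM in WT (SD, n = 4 each; adjusted p = 0.0767 by limma with the block).

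Other genes named as crystallins are enzymes or binding proteins that some animals recruited to the lens. A list of 8 held such genes and their relatives, and also Lgsn, Grifin and Vit, which are not named as crystallins. The 6 measured were Crym, Cryz, Cryzl1, Cryzl2, Cryl1 and Vit. Of these 0 passed in either fit, and the median difference was −0.02. Crym, mu-crystallin, which binds thyroid hormone, was at 1055 ± 178 FPKM in cKO and 1017 ± 271 FPKM in WT (SD, n = 4 each), rank 18 of the table. Cryz, zeta-crystallin, a quinone reductase, was at 46.4, 48.3, 55.1 and 48.2 FPKM in cKO 1, 3, 4 and 5, against 36.5, 42.2, 55.5 and 39.9 FPKM in WT 1, 3, 4 and 5. WT 4 was the highest of the 8, and the other WT libraries lay below every cKO value (log2 difference 0.20, adjusted p = 0.558 by limma, and 0.124 with the block). Cryl1, lambda-crystallin, a dehydrogenase, was at 4.95 ± 0.663 FPKM in cKO and 5.84 ± 1.004 FPKM in WT (SD, n = 4 each; adjusted p = 0.345 by limma with the block).

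Of 19 transcription factors known to act on the lens and its crystallin genes 13 were measured. In the blocked fit 0 rose, 1 fell and 12 did not reach the threshold, with a median difference of 0.11. A count of 1 in 13 is near the 7.59% of all genes that fell in this fit. Mafg, a small Maf protein that also partners Nrf2, was the 1 that fell. It was at 21.1, 30.8, 19.4 and 17.6 FPKM in cKO 1, 3, 4 and 5, against 33.7, 39.3, 24.3 and 20.6 FPKM in WT 1, 3, 4 and 5. The groups overlapped, and each pair was lower in cKO (−0.39, adjusted p = 0.516 by limma, and 0.0296 with the block). Without pair 1, 3 or 4 the blocked adjusted p was 0.0953, 0.0818 and 0.0784. Pax6, the eye master regulator, was at 151 ± 16.7 FPKM in cKO and 175 ± 9.90 FPKM in WT (SD, n = 4 each; adjusted p = 0.0851 by limma with the block).

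Genes of reactive glia, a state in which Cryab is known to rise in the nervous system, were listed as well. Of 15 on the list 12 were measured. The blocked fit called 5 higher in cKO and 0 lower and left 7 uncalled, where 2.99% of all genes were called higher and 7.59% lower. Without the block 0 passed. The median difference was 0.64. Gfap, the glial filament protein, was at 154.8, 303.9, 241.2 and 173.8 FPKM in cKO 1, 3, 4 and 5, against 56.3, 89.4, 165.7 and 55.3 FPKM in WT 1, 3, 4 and 5 (log2 difference 1.35, adjusted p = 0.00521 by limma with the block). The others that rose were Lcn2, Serpina3n, C4b and Fgf2, with log2 differences of 3.15, 2.80, 1.18 and 0.50. C4b had a mean of 4.36 FPKM in cKO and 1.69 FPKM in WT. Its mean over the 8 libraries thus lay above 2 FPKM only through cKO, and its call carries that limit. Lcn2 was also low in WT, at 1.35 to 3.69 FPKM, against 8.98 to 81.9 FPKM in cKO. Gfap and Serpina3n passed in the blocked fit whichever pair was left out. Lcn2 did not pass without pair 1 (adjusted p = 0.0589 by limma). C4b did not pass without pair 1, 3 or 5 (0.0890, 0.0809 and 0.0576), and Fgf2 did not pass without pair 1, 3, 4 or 5 (0.140, 0.160, 0.0592 and 0.103).

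**Figure D5:**
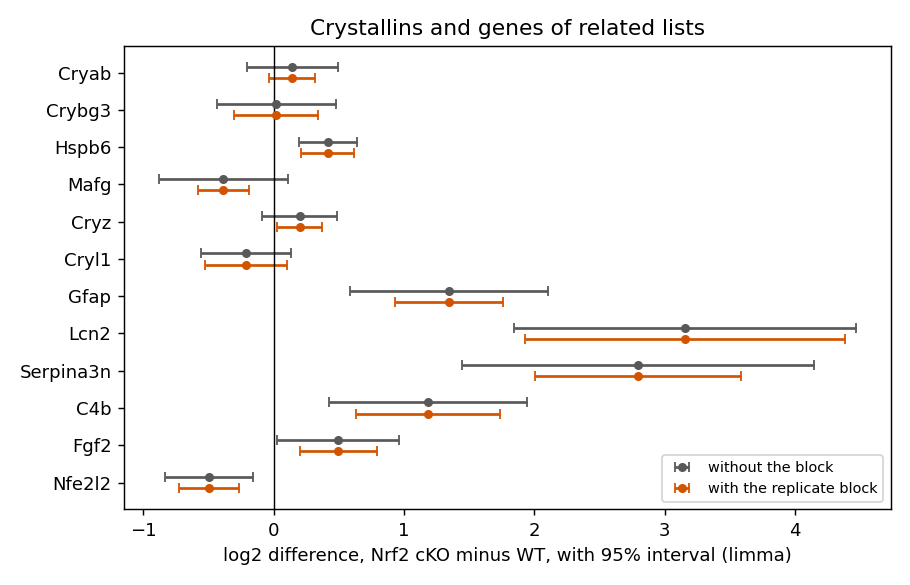
Log2 difference, Nrf2 cKO minus WT, with the 95% interval of limma without the replicate block (grey) and with it (orange), for both crystallin genes, the named genes of the related lists and Nfe2l2. The intervals of Cryab and Crybg3 include 0 in both fits, and those of Hspb6 and Gfap lie above 0.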

How the data were processed

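The authors deposited 1 table of FPKM per gene and library, the unit being given by its file name. Per the submitters' processing notes, the tools were STAR and edgeR and the builds GRCm38 and mm10, with no versions or roles. How fragments were counted, whether by strand, and how genes were filtered are not given in the sources used here. The labels' protocols give poly(A) selection and directional NEBNext libraries. Depth is unknown, so no counting interval was computed.

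On log2(FPKM + 0.5), cKO was compared with WT in limma 3.58.1 (R 4.3.3; eBayes with a trend, two-sided, Benjamini-Hochberg over 12339 genes, threshold 0.05), checked on simulated data. Fold changes on this scale understate those of low genes. The replicate numbers come from the sample titles, which do not say that they pair the samples. Correlations of deviations from the group means were 0.261 to 0.591 between libraries of equal number and −0.479 to 0.211 otherwise. On these correlations, taken from the same data, a fit with the number as a block is given too. The blocked calls depend on that reading of the numbers. The members and gene lists were chosen with earlier results of these data known. All crystallin genes were named, with the list members past the threshold in either fit (up to 6 a list, or 2 by smallest p) and the 6 nearest genes by profile. Other genes given (Riox2, Glul, Bfsp2, Tdrd7, Crym, Hsf1 and Pax6) were chosen after their values were seen. Settings tried were the pseudocount, scaling, a minimum level, library weights, eBayes without a trend, the block, and leaving out libraries or pairs.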

Additional observations from a re-analysis of the deposited data

How the results depend on the processing

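Neither crystallin gene passed the threshold in limma under any of the 21 other settings of the fit. The log2 difference of Cryab stayed above 0 in all of them, and ran from 0.05 (without cKO 4) to 0.27 (without WT 4) when 1 library was left out. Relative to the Müller markers, a measure added after the values were seen, the difference of Cryab was 0.28. The exact permutation p was 0.0286 unpaired and 0.125 with the pairs kept, each the smallest possible. The marker mean, part of this measure, itself differed by −0.13. The difference of Crybg3 was near 0 and turned to −0.011 with equal-sum (TPM) scaling, to −0.11 with library weights and to −0.15 with the block and without pair 4. Leaving out 1 library moved it between −0.21 (without WT 4) and 0.13 (without WT 1), and it was also below 0 without cKO 5. The cause of these changes of sign was not tested. Over all genes, 1305 passed with the replicate block, 402, 606, 524 and 821 with the block and without pair 1, 3, 4 or 5, and 1 with library weights, against 0 otherwise. For Nfe2l2 the pairing left 16 assignments, which allow no exact p below 0.125, so its difference of −0.50 could not pass there; leaving out 1 library moved it between −0.59 and −0.38. The block changed the call of Nfe2l2 in limma (adjusted p = 0.453 without it and 0.0219 with it) and of Hspb6, Mafg, Gfap, Lcn2, Serpina3n, C4b and Fgf2.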

Other observations

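Marker lists of other retinal cells are given as counts with the block and median log2 differences, cKO minus WT, and over all genes 2.99% rose and 7.59% fell in that fit. Of 8 bipolar cell markers 4 rose and 0 fell (median 0.23), and of 8 rod markers 0 passed (0.08). Of 7 measured cone markers 1 rose and 4 fell (−0.56). Amacrine and horizontal cell markers fell in 3 of 4 measured genes (−0.54) and ganglion cell markers in 4 of 6 (−0.47), with 0 higher in either list. Of 10 Müller markers 2 fell and 0 rose (−0.12). Of 6 measured astrocyte markers 2 rose and 0 fell (0.20), and 1 of the 2 was Gfap, already counted with the reactive glia. Vessel and pericyte markers had 1 higher of 3 measured (−0.21), and 0 passed of 2 measured pigment epithelium genes, Ttr and Rdh5.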
